A study of Danio rerio with 30 samples.

Results

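Gene expression in the optic fissure region of the zebrafish eye (Danio rerio) was compared with that of the dorsal retina before the fissure had begun to fuse. Both regions were dissected from embryos at 32 hours post-fertilisation (hpf), and total RNA was extracted by a kit designed for fixed tissue in paraffin and, per the labels' protocols, amplified from low input for sequencing. The comparison used 8 of the 30 libraries of the series: the optic fissure region (OF) and the dorsal retina (DR) of replicates 2, 3, 4 and 5, paired by replicate number. Replicate 1 of this time was left out of the test because few genes were detected in it and ribosomal protein genes took a large share, and its values are given as a description. The labels name 5 biological replicates per region and time but give no strain, no genotype and no number of embryos behind a library. P-values therefore rest on how the OF and DR difference spreads over these pairs of libraries, moderated over genes. Ventral retina outside the fissure was not sampled as a group of its own, so the fissure and ventral position cannot be told apart. In pieces of tissue, fewer cells of a type and less RNA per cell cannot be told apart either.

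The vertebrate optic cup forms with a cleft along its ventral side, the optic fissure, through which mesenchyme and blood vessels enter the eye and ganglion cell axons leave it. Its margins meet and fuse later, and a fissure that fails to close leaves a coloboma. Ventral identity depends on homeobox genes of the Vax and Pax families, dorsal identity on BMP ligands and T-box genes, and both poles of the cup make retinoic acid with different enzymes.

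The 8 libraries held 8329642 to 11345612 reads in genes, and a read in 17462 to 19311 genes. Ribosomal protein genes took 5.14% to 10.14% of their reads, against 17.32% and 18.14% in the replicate 1 pair, which had a read in 13854 and 11777 genes. The retinal homeobox gene rx1 had 2559.7, 2182, 2377 and 3433 normalised counts in OF and 3848, 2448, 2701 and 3255 in DR, with replicates in the order 2, 3, 4 and 5 here and throughout, and its levels overlapped between the regions. Of the defining markers of lens and muscle, cryaa and ckma were at 0 in all 8 libraries, whereas acta1b, of muscle, was at 15.7, 36.5, 24.9 and 19.99 in OF and 28.5, 14.3, 33.4 and 30.4 in DR and mipb, of lens, at 0, 0, 0.923 and 5.83 and 19.0, 3.07, 14.6 and 7.21. The summed lens list was 114, 120.0, 288 and 109 in OF and 130.2, 112, 190.0 and 87.3 in DR, and the summed muscle list 523, 418, 386 and 587 and 443, 417, 224 and 424.

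Of 27731 genes in the table, 13460 reached a normalised count of 10 in 4 or more of the 8 libraries and were tested. A gene could pass this filter through OF alone or DR alone. For genes near the filter, low levels in the other region, and list medians that hold them, are in part set by it. A gene was called where the adjusted p of limma was under 0.05. The test called 207 genes (1.54% of those tested), 163 higher in OF (1.21%) and 44 lower (0.327%). The median log2 fold change over all genes tested was 0.0044, and fold changes are given as OF minus DR on the log2(normalised count + 1) scale. Of the 163 higher genes 162 were higher in 4 of 4 pairs, and all 44 lower genes were lower in 4 of 4. Groups did not overlap for 124 of the 163 and 40 of the 44. Among all genes tested, 297 (2.21%) lay higher in OF with no overlap and 132 (0.981%) lower. Without the pair of replicate 4 the test called 78 genes, of which 76 were among the 207. With the replicate 1 pair added it called 54, and with the pairing ignored 63. The 37 genes called under each of the 17 alternatives that tested them included vax1, vax2, aldh1a3, pax2a, emx2, ntn1a, grem2b, smoc2, ephb2b, cxcl12a, eomesa, stra6, nr2f5, rgmd and apln among those higher in OF. Those lower in OF included tbx5a, tbx5b, tbx4, tbx3a, aldh1a2, bambia, smad6a, nr2f2, crabp2a, efnb2a, unc5b, foxg1b, gch2 and pah.

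**Figure D1:**
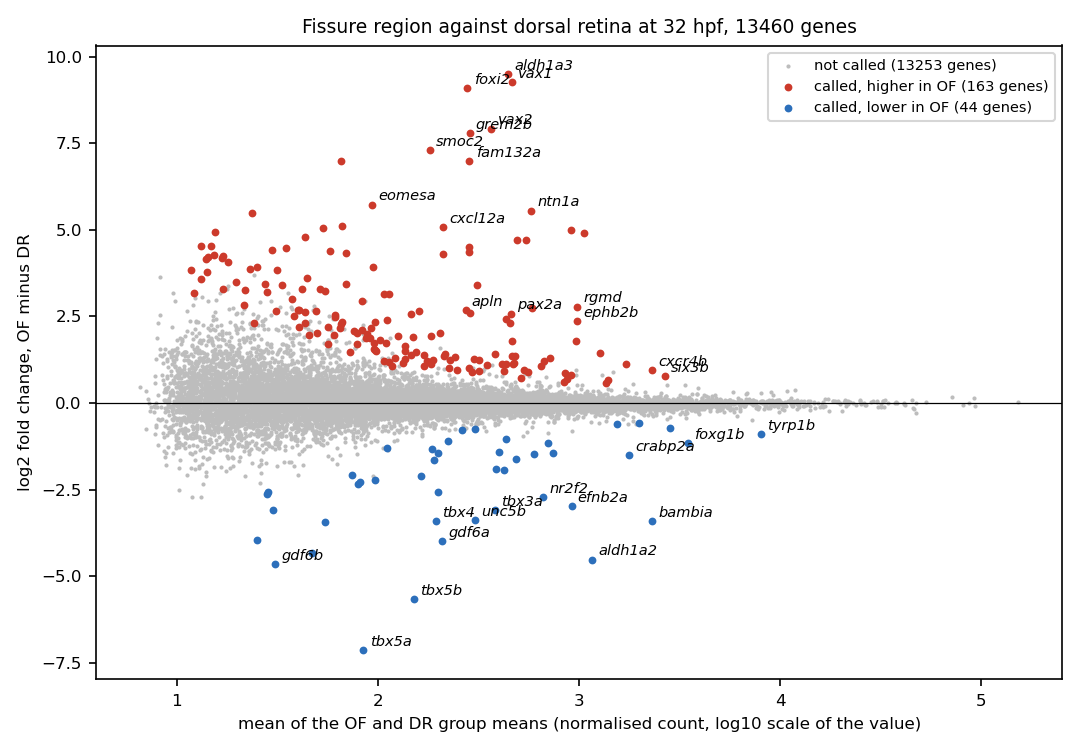
Log2 fold change of OF minus DR at 32 hpf (vertical axis) against the mean of both group means in normalised counts (horizontal axis, log10 of the value) for 13460 genes. The 163 genes called higher in OF reach 9.50 (aldh1a3) and the 44 called lower reach -7.14 (tbx5a), while the genes not called lie around 0.

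Transcription factor genes of the ventral eye and optic stalk were higher in OF, many of them with few or no reads in DR. Of 12 tested members of a list of known ventral genes, 10 were higher in OF and 1, nr2f2, was lower (median log2 fold change 4.11, against 0.0044 over all genes). The share called was 91.7%, against 1.54% of all genes tested. This list, like the others here, was compiled with earlier results of these data known, so its counts describe it and test nothing. vax1 (ENSDARG00000021916), a homeobox gene of the ventral retina and stalk, had 787, 1202, 1033 and 699.5 normalised counts in OF and 3.80, 0, 0 and 0 in DR (log2 fold change 9.26 with SE 0.48, adjusted p = 6.0e-07). Also a Vax gene, vax2 (ENSDARG00000058702) had 532, 823, 759 and 804 in OF and 0, 7.17, 8.35 and 0 in DR (log2 fold change 7.93 with SE 0.53, adjusted p = 5.3e-06). No library of one region came near the other for either gene. The forkhead gene foxi2 had 404, 649, 551 and 625 in OF and no read in DR, so that it was at least 194-fold higher at a floor of 3 reads per DR library (adjusted p = 2.8e-07).

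The paired-box genes of the stalk and fissure were also present in the dorsal retina. pax2a had 584, 829, 952 and 739 in OF and 93.1, 94.2, 114 and 257 in DR (log2 fold change 2.58 with SE 0.24, adjusted p = 1.1e-04), and DR replicate 5 stood above the other DR libraries. pax2b had 181, 371, 361 and 197 in OF and 21.9, 60.4, 47.0 and 44.1 in DR (log2 fold change 2.66 with SE 0.25, adjusted p = 1.1e-04). Neither pair of groups overlapped. Homeobox genes of the eye field and forebrain were higher in OF too. six6a had 145, 122, 154 and 85.8 in OF and 12.4, 20.5, 5.22 and 8.81 in DR (log2 fold change 3.44 with SE 0.42, adjusted p = 0.00103), and emx2 88.9, 132, 161 and 143 and 14.3, 7.17, 12.5 and 0 (log2 fold change 4.33 with SE 0.64, adjusted p = 0.00438). six3b, which both regions expressed strongly, differed less, at 3557, 2491, 3849 and 3623 and 2405, 1400.1, 2159 and 1961 (log2 fold change 0.78 with SE 0.11, adjusted p = 0.00434). The progenitor gene sox1b had 16.7, 14.6, 57.2 and 17.5 in OF, highest in replicate 4, and no read in DR, a fold of at least 9.25 (adjusted p = 0.0165). The T-box gene tbx20, whose relatives are dorsal in the eye, was higher in OF at 57.5, 55.9, 45.2 and 17.5 against 1.90, 4.097, 3.13 and 0 (log2 fold change 3.88 with SE 0.6, adjusted p = 0.0058). sox1b and tbx20 were chosen after their values were seen. Without the pair of replicate 4, six3b and sox1b missed the threshold (adjusted p = 0.0835 and 0.178), and sox1b also without replicate 5 (0.0518). The other genes of this group kept their calls with any 1 pair left out. Adding the replicate 1 pair ended the calls of foxi2, pax2b, six6a and sox1b, and of eno4 and shtn1 given below (0.0647 to 0.202).

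Genes of dorsal identity were lower in OF. A list of known dorsal genes had 19 tested members, of which 15 were lower in OF and none was higher (median log2 fold change -2.98). The share called was 78.9%, against 1.54% of all genes tested. It too was compiled with earlier results of these data known, so it describes and tests nothing. The T-box gene tbx5a had 0, 0, 0 and 0.833 normalised counts in OF, 1 read in all, and 101, 186, 193 and 197 in DR (adjusted p = 1.4e-05). The DR to OF ratio of summed reads per depth was 760 with a 95% counting interval of 136 to 30046. tbx5b had 7.32, 0, 3.69 and 24.98 in OF and 274, 212, 308 and 377 in DR (log2 fold change -5.67 with SE 0.54, adjusted p = 1.1e-04). tbx4 was the most even of the family, at 29.3, 25.9, 32.3 and 44.97 in OF and 355, 368, 345 and 362 in DR (log2 fold change -3.42 with SE 0.24, adjusted p = 7.8e-06).

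The T-box genes tbx3a and tbx2a were lower in OF but far from absent. tbx3a had 122, 32.4, 37.8 and 215 in OF and 839, 527, 566 and 728 in DR (log2 fold change -3.09 with SE 0.31, adjusted p = 2.3e-04), and OF replicates 2 and 5 were above the other OF libraries. tbx2a had 221, 182, 175 and 419 and 771, 692, 769 and 663 (log2 fold change -1.63 with SE 0.22, adjusted p = 0.00239), with OF replicate 5 again the highest of its group. Their paralog tbx2b, at 2694, 4479.8, 3061 and 2323 in OF and 3765, 3986, 3759 and 3511 in DR, was not called (log2 fold change -0.30 with SE 0.14, adjusted p = 0.549) and its groups overlapped. The forkhead gene foxi1 had 0, 1.62, 3.69 and 19.99 in OF and 57.0, 50.2, 156 and 88.1 in DR (log2 fold change -4.32 with SE 0.63, adjusted p = 0.00422). Outside the list, the forebrain forkhead gene foxg1b had 2474, 2287, 2345 and 1513 in OF and 5003, 6483, 3779 and 3937 in DR (log2 fold change -1.15 with SE 0.14, adjusted p = 0.0012), with no overlap. Its relative foxg1d, chosen after its values were seen, had 217, 49.5, 280.5 and 193 and 549, 686, 494 and 633 (log2 fold change -1.91 with SE 0.36, adjusted p = 0.0195). The call of foxi1 ended without replicate 4 (adjusted p = 0.0638) and that of foxg1d without replicate 5 (0.0518). Adding the replicate 1 pair ended the calls of foxg1d, foxi1 and tbx2a (0.0503 to 0.351).

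Several called genes lie beside each other in the genome. In the gene order of RefSeq's assembly GRCz12tu, where 199 of the 207 called genes could be placed, 17 pairs of called genes had at most 3 genes between them, and 15 of these pairs moved in the same direction. As 163 of the 207 were higher in OF, many pairs of called genes share a direction wherever they lie. Several of the 15 pairs belong to a single globin cluster that runs from hbbe1.1 to hbae3. This count was not tested. The enolase-like gene eno4 and the neuronal polarity gene shtn1 overlap each other and lie 1 gene away from vax1. eno4 had 124, 129, 98.7 and 60.8 in OF and 0, 2.05, 9.39 and 1.603 in DR (log2 fold change 5.05 with SE 0.62, adjusted p = 0.00115), and shtn1 71.1, 39.7, 53.5 and 24.98 in OF and no read in DR (at least 16.5-fold higher, adjusted p = 0.00205). tbx5a and tbx3a are neighbours, as are aldh1a2 and the water channel gene aqp9b, which had 10.5, 7.30, 5.54 and 4.996 and 60.8, 19.5, 56.4 and 63.3 (log2 fold change -2.57 with SE 0.52, adjusted p = 0.0295). Reads of overlapping genes cannot be told apart where strand was not used in counting, and the strand setting was not given in the sources used here. eno4, shtn1 and aqp9b were chosen after their values were seen, and aqp9b lost its call without replicate 2, 4 or 5 (adjusted p = 0.077, 0.211 and 0.158). None of them was called with the replicate 1 pair added.

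Retinoic acid genes differed in both directions, from retinol uptake to nuclear receptors. Of 35 tested members of the list, 8 were higher in OF and 5 lower (37.1%, against 1.54% of all genes tested), and the median was 0.2. The last step of synthesis was split between paralogs. aldh1a3 (ENSDARG00000076933) had 659, 1005, 1153 and 725 normalised counts in OF and 0, 0, 1.04 and 0 in DR, where its 1 read gave an OF to DR ratio of 3777 with a 95% counting interval of 678 to 149237 (adjusted p = 7.2e-08). aldh1a2 ran the other way, at 61.7, 92.4, 130.1 and 106 in OF and 1893, 1667, 2833 and 2549 in DR (log2 fold change -4.52 with SE 0.16, adjusted p = 4.6e-08). Unlike aldh1a3 in DR, aldh1a2 was present in every OF library.

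The steps before it were higher in OF. stra6, which encodes a retinol uptake receptor, had 847, 1348, 872 and 1019 in OF and 329.8, 332, 476 and 508 in DR (log2 fold change 1.31 with SE 0.18, adjusted p = 0.00313). rdh10a, a retinol dehydrogenase gene that makes retinaldehyde, had 1138, 1974, 1556 and 1232 in OF and 792, 341, 452 and 244 in DR (log2 fold change 1.79 with SE 0.26, adjusted p = 0.00422). The DR library of replicate 2 was the highest of its group for rdh10a and still below every OF library. dhrs3b, which encodes an enzyme of the opposite reaction, had 80.5, 194, 233 and 103 in OF and 49.4, 63.5, 81.4 and 50.5 in DR (log2 fold change 1.2 with SE 0.26, adjusted p = 0.0463), with OF replicate 2 just under the highest DR library. Its paralog dhrs3a, at 91.0, 101, 97.8 and 80.8 and 34.2, 15.4, 40.7 and 40.1, missed the threshold although its groups did not overlap (log2 fold change 1.57 with SE 0.35, adjusted p = 0.054). cyp27c1, known in zebrafish as the enzyme that makes vitamin A2, had 467, 864, 1009 and 685 in OF and 229, 122, 143 and 114 in DR (log2 fold change 2.31 with SE 0.27, adjusted p = 7.4e-04) and was chosen after its values were seen.

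The retinoic acid breakdown genes cyp26a1 and cyp26b1 were higher in OF as well. cyp26a1 had 86.8, 124, 201 and 137 in OF and 11.4, 56.3, 77.2 and 68.9 in DR (log2 fold change 1.57 with SE 0.34, adjusted p = 0.0414), and cyp26b1 49.2, 86.8, 111 and 24.98 and 3.80, 5.12, 7.31 and 12.02 (log2 fold change 2.99 with SE 0.56, adjusted p = 0.0175). cyp1b1, a cytochrome gene linked to congenital glaucoma in humans, had 1501, 2239.5, 1915 and 1471 in OF and 349.8, 505, 603 and 1631 in DR (log2 fold change 1.44 with SE 0.30, adjusted p = 0.0336). It was the 1 called gene higher in OF that was not higher in 4 of 4 pairs, because DR replicate 5 exceeded its OF partner. The binding proteins went the other way. crabp2a, a cellular retinoic acid-binding protein gene, had 867, 946, 718 and 1158 in OF and 3052, 2649.7, 2370.4 and 2363 in DR (log2 fold change -1.51 with SE 0.14, adjusted p = 1.1e-04), and its paralog crabp2b 55.4, 51.1, 46.1 and 63.3 and 302, 403, 188 and 482 (log2 fold change -2.57 with SE 0.24, adjusted p = 1.0e-04). Neither pair of groups overlapped.

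Orphan nuclear receptors of the COUP-TF family divided by paralog. nr2f5 had 523, 1629, 925 and 1028 in OF and 137, 175, 137 and 117 in DR (log2 fold change 2.75 with SE 0.21, adjusted p = 1.4e-05). nr2f2 had 143, 85.1, 174 and 371 and 1170.0, 878, 1051 and 1446 (log2 fold change -2.73 with SE 0.21, adjusted p = 1.4e-05), and nr2f1a 142, 279.7, 183 and 275 and 682, 402, 539 and 718 (log2 fold change -1.43 with SE 0.23, adjusted p = 0.00822), each lower in all OF libraries. nr2f1b, at 252, 242, 276 and 273 in OF and 196, 75.8, 152 and 126 in DR, missed the threshold (log2 fold change 1.0 with SE 0.23, adjusted p = 0.0587). Among these retinoic acid genes 6 lost their call without replicate 4 (cyp1b1, cyp26a1, cyp26b1, dhrs3b, nr2f1a and rdh10a, adjusted p from 0.0645 to 0.338). Without replicate 3 cyp1b1, cyp26a1, cyp26b1 and dhrs3b lost theirs (0.0508 to 0.224), without replicate 2 cyp1b1 and cyp26a1 (0.0569 to 0.0846) and without replicate 5 cyp26a1 and dhrs3b (0.0687 to 0.114). With the replicate 1 pair added crabp2b, cyp1b1, cyp26a1, cyp26b1, dhrs3b, nr2f1a and rdh10a were not called (0.0846 to 0.625).

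In the BMP pathway 4 ligand genes and 2 inhibitor genes inside the cell or at its surface were lower in OF, and some receptor genes and a secreted antagonist gene were higher. Of the BMP and TGF-beta list, 49 genes were tested, 6 of them higher in OF and 7 lower, with a median of -0.09. The share called was 26.5%, against 1.54% of all genes tested. The ligand gene gdf6a had 29.3, 2.43, 19.4 and 134 in OF and 392, 265, 412 and 412 in DR (log2 fold change -3.98 with SE 0.54, adjusted p = 0.00266), and OF replicate 5 was the highest of its group. gdf6b had 0, 2.43, 0 and 7.49 in OF and 74.1, 65.6, 39.7 and 56.9 in DR (log2 fold change -4.66 with SE 0.68, adjusted p = 0.00434). bmp2b had 14.6, 17.0, 63.7 and 58.3 and 113, 114, 181 and 215 (log2 fold change -2.22 with SE 0.32, adjusted p = 0.00384), and bmp4 55.4, 127, 112 and 75.8 and 281, 211, 399 and 256 (log2 fold change -1.65 with SE 0.26, adjusted p = 0.00621). None of these 4 ligand genes overlapped between the groups. Some low ligand genes that were not tested, chosen after their values were seen, lay the other way: over 4 libraries each, bmp3 had 89 reads in OF and 8 in DR, bmp5 88 and 3, and bmp6 39 and 8.

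Genes that BMP signalling is known to induce were called in part. The pseudoreceptor gene bambia had 446, 265, 510.2 and 414 in OF and 4477, 3454, 4488 and 4503 in DR (log2 fold change -3.40 with SE 0.13, adjusted p = 5.2e-08). The inhibitory Smad gene smad6a had 254, 360.0, 273 and 352 in OF and 1055, 838, 579 and 1065 in DR (log2 fold change -1.49 with SE 0.17, adjusted p = 8.4e-04). The homeobox genes msx2b and msx3, chosen after their values were seen, were also lower (log2 fold changes -3.97 and -2.34, adjusted p = 0.0126 and 0.0455). The inhibitor of differentiation genes id1, id2a, id2b, id3 and id4, also chosen after their values were seen, were not called, at log2 fold changes of -0.16, -0.87, -0.91, -0.46 and 0.66 (adjusted p = 0.906, 0.0559, 0.874, 0.264 and 0.869). Secreted antagonists were split. The gremlin gene grem2b had 691, 379, 864 and 343 in OF and 0, 4.097, 5.22 and 0 in DR (log2 fold change 7.80 with SE 0.51, adjusted p = 4.9e-06), whereas the noggin gene nog3 had 55.4, 38.1, 11.99 and 15.0 and 109, 104, 211 and 107 (log2 fold change -2.29 with SE 0.46, adjusted p = 0.026), with DR replicate 4 standing above the other DR libraries.

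The receptor genes that were called were higher in OF. The type I receptor gene bmpr1ba had 153, 167, 194 and 225 in OF and 21.9, 21.5, 59.5 and 47.3 in DR (log2 fold change 2.39 with SE 0.29, adjusted p = 0.00109). bmpr1bb is listed under 2 gene IDs, and both were higher in OF. The first (ENSDARG00000075729) had 39.7, 34.1, 28.6 and 27.5 and 0, 1.02, 4.18 and 0, and the second (ENSDARG00000102742) 69.0, 92.4, 73.8 and 101 and 0.9505, 3.07, 9.39 and 0 (log2 fold changes 4.2 and 4.8, adjusted p = 0.0126 and 0.0022). Reads could be split between 2 IDs of one gene. rgmd, of the repulsive guidance molecule family, whose members are BMP co-receptors in mammals, had 1191, 2042, 1992 and 1624 in OF and 182, 248, 341 and 222 in DR (log2 fold change 2.79 with SE 0.14, adjusted p = 4.1e-07). Its relative rgmb had 142, 242, 108 and 132 and 81.7, 119, 40.7 and 44.9 (log2 fold change 1.19 with SE 0.25, adjusted p = 0.0372), overlapping between the groups. The TGF-beta type II receptor gene tgfbr2b had 59.6, 72.2, 57.2 and 30.8 and 1.90, 30.7, 1.04 and 0 (log2 fold change 3.85 with SE 0.69, adjusted p = 0.0142), where DR replicate 3 came within a read of the lowest OF library. rgmd and rgmb were chosen after their values were seen. Of the BMP and TGF-beta genes named so far, bmp4, gdf6a, msx2b, msx3, nog3, rgmb and tgfbr2b lost their call without replicate 4 (adjusted p from 0.0506 to 0.209). Without replicate 5 the first bmpr1bb ID, msx2b, msx3, nog3, rgmb and tgfbr2b lost theirs (0.0512 to 0.198), without replicate 2 msx3 (0.12) and without replicate 3 rgmb (0.128). Adding the replicate 1 pair ended the calls of bmp2b, bmp4, bmpr1ba, gdf6a, gdf6b, msx2b, msx3, nog3, rgmb and tgfbr2b (0.0711 to 0.831).

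Calls in the FGF pathway ran in 1 direction: of 23 tested members 4 were called higher in OF, none was called lower, and the median was 0.41. The share called was 17.4%, against 1.54% of all genes tested. Called or not, 10 members were higher and 2 lower in OF in 4 of 4 pairs. The ligand gene fgf3 had 77.4, 78.7, 113 and 66.6 in OF and 17.1, 24.6, 10.4 and 4.81 in DR (log2 fold change 2.65 with SE 0.44, adjusted p = 0.00843). flrt3, a transmembrane partner of FGF receptors in Xenopus, had 326, 311, 269 and 389 and 85.5, 70.7, 143 and 44.9 (log2 fold change 2.01 with SE 0.30, adjusted p = 0.00448). The feedback inhibitor genes il17rd and dusp6, which FGF signalling is known to induce in zebrafish, stood at 28.2, 68.9, 96.9 and 49.96 against 1.90, 3.07, 14.6 and 3.21 (log2 fold change 3.42 with SE 0.51, adjusted p = 0.00448) and 219.7, 388, 330.3 and 282 against 115, 159.8, 156 and 163 (log2 fold change 1.02 with SE 0.18, adjusted p = 0.0143). All 4 genes were higher in every OF library than in any DR library.

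Among 47 tested Wnt genes 3 were higher in OF and 1 was lower (8.51%, against 1.54% of all genes tested, median 0.09). The secreted Frizzled-related gene sfrp1a had 2010.5, 1773, 3063 and 2591 in OF and 1102, 671, 1188 and 1384 in DR (log2 fold change 1.13 with SE 0.13, adjusted p = 8.4e-04). notum1a, which encodes an enzyme that inactivates Wnt ligands, had 23.0, 81.1, 57.2 and 37.5 and 2.85, 18.4, 2.09 and 1.603 (log2 fold change 3.21 with SE 0.57, adjusted p = 0.0135), and apcdd1l, related to a Wnt inhibitor, 222, 186, 289.7 and 565 and 115, 53.3, 129 and 159 (log2 fold change 1.43 with SE 0.22, adjusted p = 0.00567). The lower gene was the Wnt agonist gene rspo2, at 4.18, 10.5, 6.46 and 6.66 in OF and 33.3, 47.1, 76.2 and 39.3 in DR (log2 fold change -2.64 with SE 0.48, adjusted p = 0.0163). cxxc4, a further Wnt inhibitor gene that is on no list and was chosen after its values were seen, had 212, 185, 305 and 77.4 in OF and 25.7, 79.9, 15.7 and 3.21 in DR (log2 fold change 3.16 with SE 0.46, adjusted p = 0.00435). Without replicate 4, cxxc4, dusp6, fgf3, notum1a and rspo2 missed the threshold (adjusted p from 0.0669 to 0.144), as did notum1a and rspo2 without replicate 5 (0.0538 to 0.0568) and dusp6 without replicate 3 (0.0869). With the replicate 1 pair added apcdd1l, cxxc4, dusp6, fgf3, flrt3, notum1a and rspo2 missed it (0.0706 to 0.68).

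Axon guidance genes held both a ventral and a dorsal set. Of 65 tested members 8 were higher in OF and 3 lower (16.9%, against 1.54% of all genes tested, median 0.26). ntn1a, the netrin-1 gene, had 936, 998, 1489 and 1088 in OF and 10.5, 29.7, 29.2 and 28.0 in DR (log2 fold change 5.56 with SE 0.24, adjusted p = 1.3e-07). unc5b, a netrin receptor gene, was distributed in reverse, at 60.7, 47.0, 18.5 and 123 in OF and 498, 403, 613 and 673 in DR (log2 fold change -3.38 with SE 0.34, adjusted p = 2.0e-04). Eph receptors and their ligands were opposed in the same way. The receptor gene ephb2b had 1469.7, 1929, 1674 and 1455 in OF and 328, 403, 292 and 257 in DR (log2 fold change 2.36 with SE 0.13, adjusted p = 1.3e-06), and ephb3a 769.9, 1192, 915 and 849 and 482, 350.3, 325 and 459.9 (log2 fold change 1.2 with SE 0.18, adjusted p = 0.00537). The ligand gene efnb2a had 227, 124, 233 and 269.8 in OF and 1564, 1686, 1771 and 1476 in DR (log2 fold change -2.98 with SE 0.19, adjusted p = 4.9e-06), and efnb1 73.2, 98.9, 22.1 and 76.6 and 172, 222, 93.9 and 134 (log2 fold change -1.3 with SE 0.27, adjusted p = 0.0363). The groups overlapped for efnb1 and for none of the other 5 genes of this paragraph.

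Genes of the Cxcl12 chemokine system were higher in OF. cxcl12a, a ligand gene, had 219, 534, 696 and 192 in OF and 9.50, 17.4, 8.35 and 5.61 in DR (log2 fold change 5.08 with SE 0.35, adjusted p = 6.6e-06). Its paralog cxcl12b had 207, 203, 171 and 94.1 and 78.9, 54.3, 28.2 and 42.5 (log2 fold change 1.74 with SE 0.29, adjusted p = 0.00999). The receptor gene cxcr4b had 4120.4, 3382, 3600.3 and 981 in OF and 2207, 2283, 1232 and 577 in DR (log2 fold change 0.94 with SE 0.15, adjusted p = 0.0079). cxcr4b was low in both libraries of replicate 5, so the groups overlapped while each OF library exceeded its own partner. ackr3b, a scavenger receptor gene for the same ligands, had 710.3, 701, 844 and 501 in OF and 291, 199, 296 and 283 in DR (log2 fold change 1.36 with SE 0.18, adjusted p = 0.00184). Further guidance genes higher in OF were the semaphorin and VEGF receptor gene nrp1a (407, 510.0, 401 and 371 against 114, 199, 233 and 171, log2 fold change 1.27 with SE 0.2, adjusted p = 0.0058) and the repellent gene draxin (642, 457, 508 and 285 against 300.4, 281, 146 and 158, log2 fold change 1.11 with SE 0.2, adjusted p = 0.0135). ackr3b and draxin were chosen after their values were seen. Without replicate 4, cxcl12b, cxcr4b, draxin, efnb1 and ephb3a lost their calls (adjusted p from 0.0885 to 0.202), and efnb1 did so without any other pair as well (0.0678, 0.105 and 0.0591 without replicates 2, 3 and 5). Adding the replicate 1 pair ended the calls of ackr3b, cxcl12b, cxcr4b, draxin and efnb1 (0.0843 to 0.78).

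**Figure D2:**
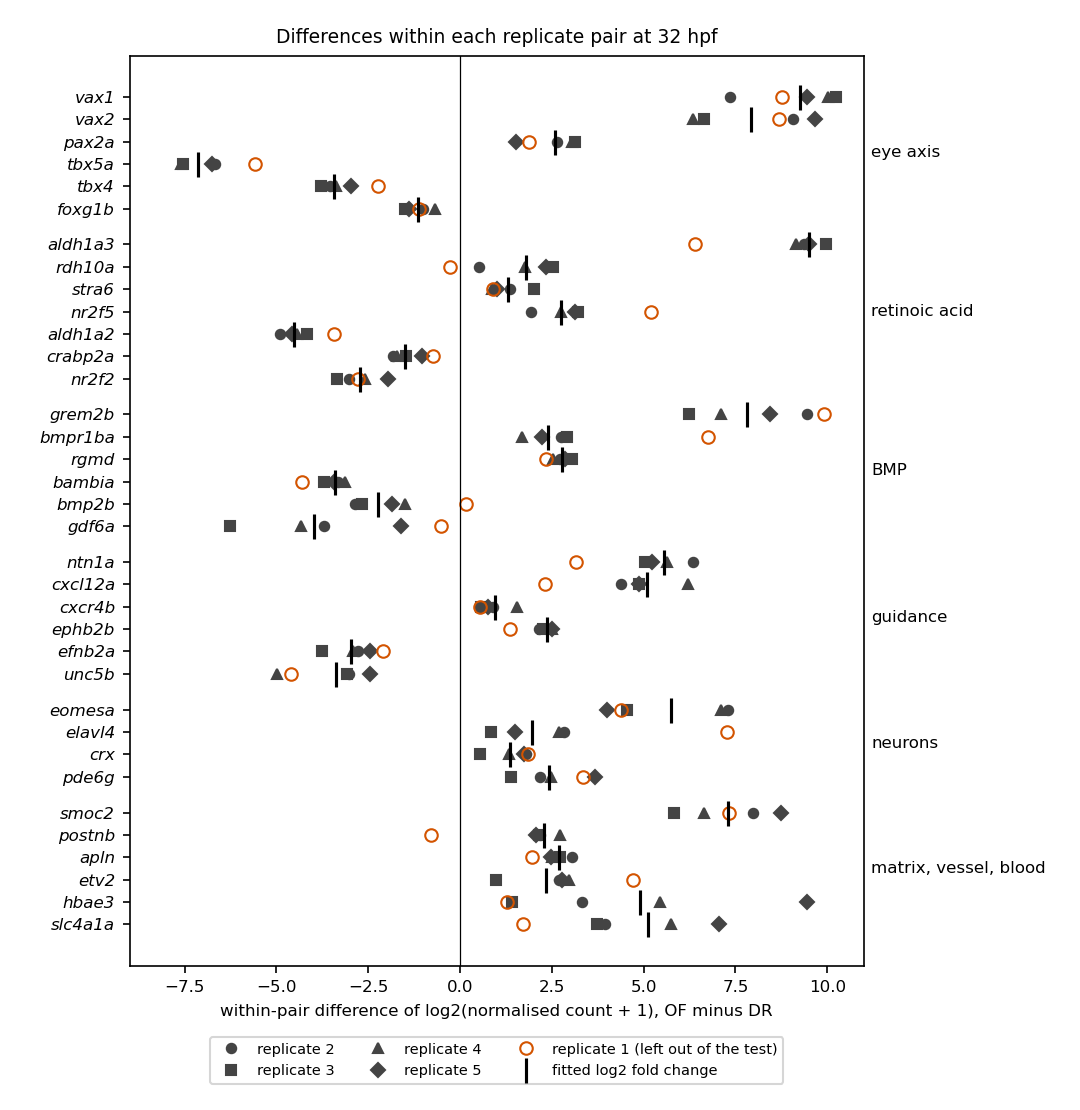
Difference of log2(normalised count + 1) between OF and DR within each replicate pair at 32 hpf (horizontal axis), for 35 genes in 6 groups. Filled symbols are replicates 2 to 5, open orange circles the replicate 1 pair that the test left out, and vertical bars the fitted log2 fold change. The pairs of aldh1a2 lie close together around -4.52, those of hbae3 spread widely around 4.91, and in the replicate 1 pair rdh10a, bmp2b and postnb fall on the other side of 0.

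Along the second axis of the retina, limma called none of 13 tested genes of nasal and temporal identity higher in OF and 1, nr2f1a, lower (median 0.19). The share called was 7.69%, against 1.54% of all genes tested. edgeR called none higher, whereas DESeq2, array weights and the fit to 13 pairs each called 2 higher, as did limma without replicate 4, and without replicate 3 it called 1. The temporal forkhead gene foxd1 had 1437, 1072, 1018 and 1485 in OF and 813, 469, 1074 and 397 in DR (log2 fold change 0.96 with SE 0.24, adjusted p = 0.0912), and the nasal homeobox gene hmx4 984, 584, 1525 and 769 and 1112, 1365, 1416 and 1379.8 (log2 fold change -0.53 with SE 0.19, adjusted p = 0.348). The groups overlapped for both. hmx1, epha3 and efna2b had log2 fold changes of -0.54, 0.83 and 1.12 and were not called (adjusted p = 0.508, 0.117 and 0.107). A p above the threshold does not show that these levels were equal.

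Some genes of early photoreceptors were higher on the fissure side in the paired test. Of 14 tested photoreceptor genes 5 were higher in OF and none lower (median 1.39), and 36 listed genes, most of them of later photoreceptors, were below the filter. The share called was 35.7%, against 1.54% of all genes tested. crx, a homeobox gene of photoreceptor precursors, had 904, 1065, 462 and 72.4 normalised counts in OF and 261, 733, 182 and 20.8 in DR (log2 fold change 1.35 with SE 0.22, adjusted p = 0.00785). The groups overlapped because both libraries of replicate 5 were low and DR replicate 3 was high, but OF was higher in each pair. The nuclear receptor gene nr2e3 had 690.4, 884, 449 and 49.96 in OF and 284, 599, 98.1 and 15.22 in DR (log2 fold change 1.42 with SE 0.25, adjusted p = 0.012), and otx5 746, 1206, 646 and 96.6 and 375, 897, 259 and 44.1 (log2 fold change 0.96 with SE 0.18, adjusted p = 0.0165). pde6g, a phosphodiesterase subunit gene of the light response, had 789.8, 1109, 788 and 42.5 in OF and 175, 421, 139.9 and 2.404 in DR (log2 fold change 2.43 with SE 0.30, adjusted p = 0.00127). The blue cone opsin gene opn1sw2 had 120.3, 144, 65.5 and 95.8 in OF and 13.3, 15.4, 28.2 and 39.3 in DR (log2 fold change 2.17 with SE 0.42, adjusted p = 0.0215), and its groups did not overlap.

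Another pair of called genes, named for their change between 32 and 56 hpf, also belongs to photoreceptors. samd7, a repressor gene of photoreceptors in mice, had 82.6, 173, 65.5 and 7.49 in OF and 12.4, 42.0, 14.6 and 2.404 in DR (log2 fold change 2.02 with SE 0.43, adjusted p = 0.0382). arl3l1, related to a gene of photoreceptor protein transport, had 68.0, 73.0, 36.9 and 11.7 and 3.80, 8.19, 0 and 0 (log2 fold change 3.94 with SE 0.64, adjusted p = 0.00822). The summed photoreceptor list was 13217, 13710.3, 9598 and 6780.1 in OF and 9138, 11625, 7613 and 6920.5 in DR, so the sum was not higher in OF within the replicate 5 pair. Without replicate 4 all of these genes except pde6g missed the threshold (adjusted p from 0.0581 to 0.214), opn1sw2 and samd7 also without replicate 2 (0.0681 and 0.14) or 3 (0.0834 and 0.22), and otx5 without replicate 5 (0.0538). With the pairing ignored all 7 photoreceptor genes named here missed it (limma, adjusted p of 0.0581 or more). With the replicate 1 pair added 5 did, arl3l1, nr2e3, opn1sw2, otx5 and samd7 (0.142 to 0.775).

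Ganglion cells are the first neurons of the retina, and 5 of 18 tested genes on their list were higher in OF, none lower (median 0.79). The share called was 27.8%, against 1.54% of all genes tested. The T-box gene eomesa, known from ganglion cells, had 155, 285, 281 and 15.0 in OF and 0, 11.3, 1.04 and 0 in DR (log2 fold change 5.73 with SE 0.65, adjusted p = 7.0e-04). No OF library of eomesa was below a DR library, although OF replicate 5 was near the highest of them. The neuronal RNA-binding gene elavl4 had 108, 109, 155 and 10.8 and 14.3, 60.4, 23.0 and 3.21 (log2 fold change 1.97 with SE 0.44, adjusted p = 0.0492), the adhesion gene alcama 370.3, 586, 500.1 and 217 and 204, 497, 109 and 68.9 (log2 fold change 1.23 with SE 0.27, adjusted p = 0.0474). The transcription factor gene ebf1a had 253, 364, 260.2 and 107 in OF and 90.3, 186, 92.9 and 56.9 in DR (log2 fold change 1.21 with SE 0.21, adjusted p = 0.0135), and its relative ebf3a, from the list of neurogenic factors, 365, 456, 358 and 29.1 and 143, 273, 61.6 and 16.0 (log2 fold change 1.36 with SE 0.30, adjusted p = 0.0451). These groups overlapped except for eomesa, again with both replicate 5 libraries low. ebf3a was the 1 call among 28 tested neurogenic factors (3.57%, against 1.54% of all genes tested), whose median was 0.07.

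Better known ganglion cell genes were not called. isl1 had 845, 1189, 551 and 179 in OF and 565, 879, 156 and 147 in DR (log2 fold change 0.78 with SE 0.23, adjusted p = 0.179), and rbpms2b 1869, 1359, 1378 and 342 and 795, 1296, 411 and 307 (log2 fold change 0.8 with SE 0.24, adjusted p = 0.199). isl2b and pou4f2 had log2 fold changes of 1.51 and 1.11 (adjusted p = 0.231 and 0.483). The summed ganglion cell list was 9212, 8778, 7892 and 2315 in OF and 4753, 6481, 2787 and 1765 in DR, higher in OF in 4 of 4 pairs, with replicate 5 lowest in both regions. The labels give no stage for single embryos, and the part of stage in these values was not tested. Without replicate 4 the calls of alcama, ebf1a, ebf3a and elavl4 ended (adjusted p from 0.139 to 0.370), those of ebf3a and elavl4 also without replicate 2 (0.0959 and 0.169) or 3 (0.0512 and 0.0523), and those of alcama and elavl4 without replicate 5 (0.176 and 0.0512). The calls of alcama, ebf1a, ebf3a and elavl4 also ended with the replicate 1 pair added (0.129 to 0.451).

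No DNA replication or mitosis gene was called and most progenitor genes were not, which does not show that their levels were equal. The share called among progenitor genes was 9.68%, against 1.54% of all genes tested. None of 46 tested DNA replication genes was called (median -0.15), although 11 were lower in OF in 4 of 4 pairs and none was higher in 4 of 4. Among all 13460 genes tested, 877 were lower in 4 of 4 pairs and 1323 higher. None of 46 mitosis genes was called either (median 0.0090). Of 31 retinal progenitor genes 3 were higher in OF, six3b, six6a and the Hairy-related gene her9 (1815, 995, 1644 and 2050.2 against 1205, 615, 1149 and 1413, log2 fold change 0.58 with SE 0.12, adjusted p = 0.0263), with a median of 0.11. Of 35 Notch genes 1, her9, was called (2.86%, against 1.54% of all genes tested, median 0.02). No call was made among 17 Hedgehog genes (median 0.11), 28 neuronal and synaptic genes (0.75), 28 matrix proteases and inhibitors (0.30), 22 genes of p53 and apoptosis (0.01) or 7 Iroquois genes (0.6). These counts of 0 are limma's. At an unadjusted p under 0.05 they were 2 for DNA replication, 0 for mitosis, 3 for Hedgehog, 8 for neuronal, 5 for protease, 2 for p53 and 3 for Iroquois genes. edgeR called none of them, and DESeq2 called 2 neuronal genes and 1 protease gene. her9 lost its call without replicate 3, 4 or 5 (adjusted p = 0.15, 0.205 and 0.114), and with the replicate 1 pair added.

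Matrix genes higher in OF ranged from basement membrane modulators to fibrillar collagen. Of 29 basement membrane genes 3 were higher, of 42 interstitial matrix genes 4 and of 39 genes of cadherins, integrins and junctions 4, and limma called none lower (medians 0.43, 0.6 and 0.18). The shares called were 10.3%, 9.52% and 10.3%, against 1.54% of all genes tested. DESeq2, array weights, the fit to 13 pairs and limma without replicate 2 each called 1 basement membrane gene lower, and edgeR none. smoc1 and smoc2 encode secreted modulators that bind the basement membrane. smoc1 had 112, 193, 86.7 and 136 in OF and no read in DR (at least 46.0-fold higher, adjusted p = 3.9e-05), and smoc2 249, 344, 415 and 429.7 and 0, 5.12, 3.13 and 0 (log2 fold change 7.30 with SE 0.52, adjusted p = 7.8e-06). The nidogen gene nid2a had 88.9, 68.9, 209 and 127 in OF and 42.8, 12.3, 30.3 and 27.2 in DR (log2 fold change 2.09 with SE 0.35, adjusted p = 0.00999). No group of these 3 genes overlapped.

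The periostin gene postnb had 80.5, 39.7, 228 and 96.6 in OF and 17.1, 8.19, 33.4 and 22.4 in DR (log2 fold change 2.28 with SE 0.34, adjusted p = 0.00517), with OF replicate 4 far above the other OF libraries. The tenascin gene tnc had 85.8, 74.6, 103 and 103 in OF and 8.55, 25.6, 10.4 and 1.603 in DR (log2 fold change 3.30 with SE 0.55, adjusted p = 0.00994), and the fibrillar collagen gene col5a3a 62.8, 57.6, 137 and 149 and 2.85, 12.3, 28.2 and 42.5 (log2 fold change 2.55 with SE 0.43, adjusted p = 0.00999). col14a1a and tgfbi, which encode a fibril-associated collagen and a secreted adhesion protein, had log2 fold changes of 1.69 and 1.66 (adjusted p = 0.0302 and 0.0215). cthrc1a, a secreted collagen-repeat gene chosen after its values were seen, had 96.2, 77.8, 157 and 60.8 and 9.50, 19.5, 11.5 and 2.404 (log2 fold change 3.25 with SE 0.45, adjusted p = 0.00316). The summed interstitial matrix list was 3843, 3595, 5956 and 3499 in OF and 2614, 2479, 3756 and 3005 in DR, highest in replicate 4 in both regions.

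Among adhesion genes, the fibronectin receptor gene itga5 had 47.1, 60.0, 64.6 and 44.1 in OF and 3.80, 15.4, 9.39 and 5.61 in DR (log2 fold change 2.66 with SE 0.46, adjusted p = 0.0124). The cadherin gene cdh4 had 143, 173, 113 and 102 and 49.4, 12.3, 21.9 and 53.7 (log2 fold change 2.12 with SE 0.42, adjusted p = 0.0241). The claudin gene cldn11a had 46.0, 42.2, 147 and 34.1 and 0, 0, 4.18 and 7.21 (log2 fold change 4.48 with SE 0.69, adjusted p = 0.0059), again with OF replicate 4 apart. The junction scaffold gene tjp1a (690.4, 533, 789 and 558 against 349.8, 369, 502 and 330.1, log2 fold change 0.73 with SE 0.14, adjusted p = 0.0257) and the Hippo effector gene yap1 (791, 1149, 1148 and 973 against 610.2, 686, 670.1 and 685, log2 fold change 0.6 with SE 0.13, adjusted p = 0.0467) were abundant in both regions and differed by less. yap1 was the 1 called gene of 26 tested Hippo genes (3.85%, against 1.54% of all genes tested, median 0.000012). Without replicate 4 smoc1, smoc2 and cthrc1a remained called and the other 11 genes of these paragraphs were not (adjusted p from 0.0808 to 0.370). Without replicate 3 cdh4, col14a1a, tgfbi, tjp1a and yap1 lost their calls (0.0508 to 0.224), without replicate 5 col14a1a, itga5, nid2a, tjp1a and yap1 (0.0501 to 0.142), and without replicate 2 col14a1a (0.100). With the replicate 1 pair added smoc2 alone kept its call, and the other 13 genes, smoc1 and cthrc1a among them, did not (0.0785 to 0.794).

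**Figure D3:**
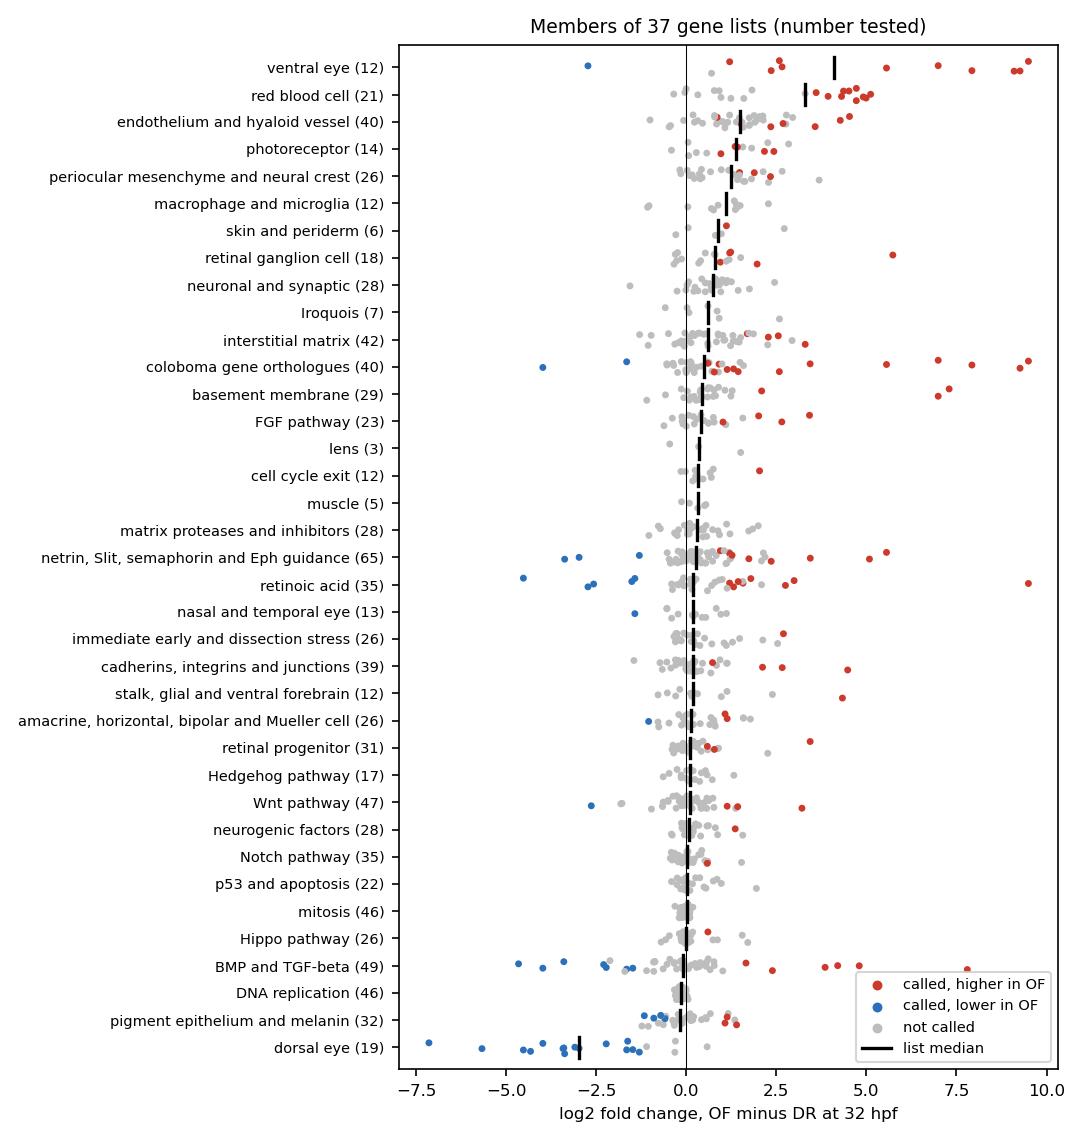
Log2 fold change of OF minus DR at 32 hpf (horizontal axis) for each tested member of 37 gene lists (rows, with the number tested). Red points were called higher in OF, blue points lower, grey points were not called, and black bars are list medians. The ventral list (median 4.11) and the dorsal list (median -2.98) lie at the ends, and the red blood cell list (3.30) is the next highest. The lists were compiled with earlier results of these data known, so their places describe them and test nothing.

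Vascular genes were higher in OF. Of 40 tested endothelial and hyaloid vessel genes 7 were higher in OF and none lower (17.5%, against 1.54% of all genes tested, median 1.5). The endothelial ETS factor gene etv2 had 91.0, 79.5, 185 and 87.4 normalised counts in OF and 13.3, 39.9, 23.0 and 12.02 in DR (log2 fold change 2.35 with SE 0.40, adjusted p = 0.00999), and the vascular cadherin gene cdh5 127, 115, 189 and 137 and 65.6, 64.5, 45.9 and 26.4 (log2 fold change 1.53 with SE 0.32, adjusted p = 0.0346). apln, the apelin ligand gene, had 552, 429, 557 and 354 in OF and 65.6, 64.5, 98.1 and 62.5 in DR (log2 fold change 2.69 with SE 0.2, adjusted p = 1.1e-05). Receptor genes of lymphatic and venous endothelium had few or no reads in DR. Both mrc1a and lyve1b passed the filter through OF alone, so their low DR levels are in part set by it. mrc1a had 16.7, 31.6, 40.6 and 29.1 in OF and 0, 0, 4.18 and 0 in DR (log2 fold change 4.27 with SE 0.75, adjusted p = 0.0126), and lyve1b 23.0, 10.5, 44.3 and 40.0 and 0, 0, 0 and 0.801, where 1 DR read gave a ratio of 124 with a 95% counting interval of 21.9 to 4934 (adjusted p = 0.0124).

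The endothelial genes ecscr and s1pr1 were higher as well (log2 fold changes 3.58 and 0.86, adjusted p = 0.0387 and 0.0358), as was the flow-responsive gene klf2a (2.70, adjusted p = 0.0381). klf2a was also the 1 call among 26 tested genes of immediate early response and dissection stress (3.85%, median 0.18). The defining markers kdrl and fli1a were not called. kdrl had 37.7, 56.8, 77.5 and 57.5 in OF and 25.7, 18.4, 3.13 and 24.8 in DR (log2 fold change 1.88 with SE 0.57, adjusted p = 0.198), and fli1a 82.6, 98.9, 214 and 93.3 and 56.1, 61.5, 34.4 and 54.5 (log2 fold change 1.15 with SE 0.36, adjusted p = 0.227). No library of one region reached the other for kdrl or fli1a. The summed list was 5372, 5798, 6556 and 4233 in OF and 4116, 3611, 2453 and 2261 in DR. Without replicate 4 only apln of these genes kept its call, and cdh5, ecscr, etv2, klf2a, lyve1b, mrc1a and s1pr1 did not (adjusted p from 0.0716 to 0.324). Without replicate 5 cdh5, ecscr, klf2a, lyve1b and mrc1a lost theirs (0.0538 to 0.166), without replicate 3 ecscr, klf2a and s1pr1 (0.0728 to 0.0910) and without replicate 2 ecscr (0.0572). With the replicate 1 pair added apln again was the only one of these genes to keep its call (others 0.0888 to 0.729).

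Red blood cell genes had the second highest median of the lists, 3.30 over 21 tested genes, of which 10 were higher in OF and none lower. The share called was 47.6%, against 1.54% of all genes tested, and 12 further listed genes were below the filter. The globin gene hbae3 had 4216, 1222, 866 and 1264 in OF and 420.1, 458, 18.8 and 0.801 in DR (log2 fold change 4.91 with SE 0.88, adjusted p = 0.0146), so that OF replicate 2 held the most and DR replicates 4 and 5 almost none. The anion exchanger gene slc4a1a had 176, 149, 52.59 and 131 in OF and 10.5, 10.2, 0 and 0 in DR (log2 fold change 5.12 with SE 0.6, adjusted p = 8.4e-04). The carbonic anhydrase gene cahz had 247, 152, 98.7 and 156 and 30.4, 65.6, 4.18 and 0 (log2 fold change 3.94 with SE 0.73, adjusted p = 0.0172), and the heme synthesis gene alas2 129.7, 75.4, 27.7 and 72.4 and 11.4, 36.9, 1.04 and 0 (log2 fold change 3.60 with SE 0.71, adjusted p = 0.0238). The globin genes hbbe1.1, hbbe1.2, hbbe1.3, hbbe3 and hbae1.3 had log2 fold changes of 4.72, 4.72, 4.36, 4.99 and 4.52. The other defining red cell markers, hbae1.1 and gata1a, were below the filter. hbae1.1 was at 0 in each OF library and at 1.90, 0, 0 and 0 in DR. gata1a was at 0, 8.11, 0 and 19.2 in OF and 4.75, 3.07, 0 and 0 in DR. Globin copies share sequence, and reads could be split among them. Whether vessels of the fissure or blood carried over in dissection gave these reads was not tested. The summed list was 14318, 5900.4, 4927 and 6453 in OF and 1877, 3027, 895 and 494 in DR, and in the replicate 1 pair, left out of the test, 79602 and 32570. Without replicate 4 slc4a1a alone of the 9 called genes named here kept its call (adjusted p of the others from 0.176 to 0.286), and alas2 lost it without replicate 2 (0.0635) or 5 (0.0696). With the replicate 1 pair none of the 9 was called (0.0805 to 0.528), with no filter or with the pairing ignored 8 lost their calls (0.0512 to 0.126 and 0.227 to 0.394), with a robust spread 6 globin genes did (0.332 to 0.66) and with DESeq2 5 genes (0.0665 to 0.163).

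Periocular mesenchyme surrounds the cup and enters through the fissure. Of 26 tested genes of mesenchyme and neural crest 3 were higher in OF and none lower (11.5%, against 1.54% of all genes tested, median 1.25). The forkhead gene foxc1a had 109, 68.1, 260.2 and 113 in OF and 26.6, 24.6, 72.0 and 22.4 in DR (log2 fold change 1.89 with SE 0.30, adjusted p = 0.00621), highest in replicate 4 of both regions, and eya1 176, 235, 245 and 246 and 54.2, 72.7, 84.5 and 120.2 (log2 fold change 1.48 with SE 0.22, adjusted p = 0.00503). The crest gene sox10, at 17.8, 48.6, 54.4 and 14.2 in OF and 45.6, 19.5, 65.8 and 19.2 in DR, overlapped between the regions. The endothelin receptor gene ednraa, known from neural crest and named for its change over time, had 113, 179, 161 and 133 in OF and 22.8, 29.7, 16.7 and 8.81 in DR (log2 fold change 2.94 with SE 0.35, adjusted p = 8.9e-04). The summed list was 3870.4, 3654, 4462 and 3087 in OF and 2586, 2558, 3302 and 2572 in DR, and 3540.1 and 3575 in the replicate 1 pair, where OF was not higher.

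Of 6 tested skin genes 1 was higher in OF, the keratin gene krt18 (441, 535, 1014 and 607 against 340.3, 322, 283 and 212, log2 fold change 1.11 with SE 0.22, adjusted p = 0.0263). This 1 call of 6 is 16.7%, against 1.54% of all genes tested. The defining skin markers krt4 and tp63 were not called (log2 fold changes 0.05 and -0.29, adjusted p = 0.997 and 0.929). A further marker, krt5, was below the filter. The summed skin list was 961, 809, 1938 and 902 in OF and 605, 516, 641 and 437 in DR, with OF replicate 4 apart, and 779 and 856 in the replicate 1 pair, again with OF not higher. krt18 alone made up a large part of this sum. Of the matrix, vascular, mesenchyme and skin genes, OF replicate 4 thus held the highest summed level in each list, and the part of such tissue in the OF and DR difference was not tested. Without replicate 4 eya1, foxc1a and krt18 lost their calls (adjusted p from 0.0566 to 0.281), and krt18 without replicate 5 (0.133). Adding the replicate 1 pair ended the calls of ednraa, eya1, foxc1a and krt18 (0.0843 to 0.19). None of 12 macrophage genes (median 1.11), 3 lens genes (0.34) or 5 muscle genes (0.32) was called by limma. An unadjusted p under 0.05 was found for 3 macrophage genes, 1 lens gene and 1 muscle gene, edgeR called none of them and DESeq2 1 macrophage gene.

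Pigment genes were called in both directions. Of 32 tested members 3 were higher in OF and 4 lower (21.9%, against 1.54% of all genes tested, median -0.17). The melanosome genes tyrp1b and pmela were lower in OF. tyrp1b had 5876, 5454, 7247 and 4095 in OF and 10432, 10349, 11013 and 9749.7 in DR (log2 fold change -0.9 with SE 0.13, adjusted p = 0.00326), and pmela 1735, 2687, 2023 and 2199 and 3505, 3640.1, 3219 and 3626 (log2 fold change -0.71 with SE 0.12, adjusted p = 0.0119), without overlap. The pteridine synthesis gene gch2 had 343, 483, 450.3 and 429 in OF and 969, 942, 694 and 1284 in DR (log2 fold change -1.17 with SE 0.17, adjusted p = 0.00448), and the gap junction gene cx43 was lower too (log2 fold change -0.59 with SE 0.12, adjusted p = 0.0372). dct and tyr, which also encode melanin enzymes, were not called (log2 fold changes -0.38 and -0.57, adjusted p = 0.302 and 0.305). The other 3 called genes of the list were higher in OF. The transcription factor gene tfec had 237, 201, 357 and 179 and 116, 56.3, 149 and 63.3 (log2 fold change 1.40 with SE 0.22, adjusted p = 0.00621), bhlhe40 825, 1016, 968 and 672 and 246, 559, 498 and 401 (log2 fold change 1.08 with SE 0.17, adjusted p = 0.00785), and the retinaldehyde-binding protein gene rlbp1a 480.1, 616, 798 and 441 and 133, 343, 469.7 and 207 (log2 fold change 1.13 with SE 0.19, adjusted p = 0.00999). The summed list was 30944, 29834, 30468 and 20837 in OF and 35988, 37419, 39789 and 35960.5 in DR. Without replicate 4 only gch2 and tyrp1b remained called (adjusted p of the others from 0.0597 to 0.362), and cx43 and pmela were also lost without replicate 5 (0.0591 to 0.163). With the replicate 1 pair added cx43, rlbp1a and tfec were lost (0.0538 to 0.704).

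**Figure D4:**
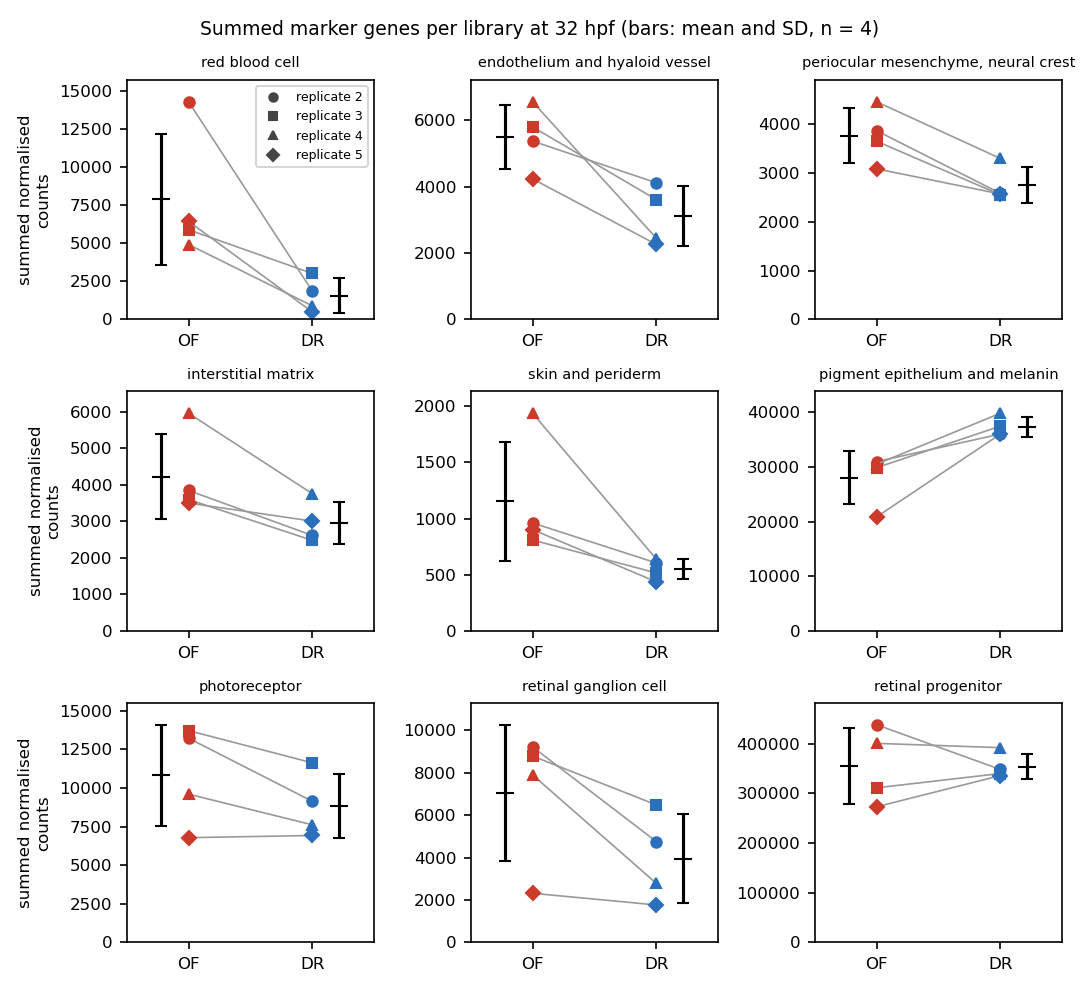
Summed normalised counts (vertical axes) of 9 gene lists in each OF (red) and DR (blue) library at 32 hpf, with lines joining the pairs, symbols for replicates 2 to 5, and bars for the mean and SD (n = 4). Red blood cell genes range from 4927 to 14318 in OF and from 494 to 3027 in DR, pigment genes are lower in OF, and retinal progenitor genes overlap.

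Beyond the lists, fam132a, a gene of the secreted C1q and TNF-related family, was among the 12 largest increases, at 502, 508, 662 and 589 in OF and 0, 7.17, 6.26 and 5.61 in DR (log2 fold change 6.98 with SE 0.46, adjusted p = 5.0e-06). fibinb, of a secreted protein family, was among the 12 largest decreases, at 5.23, 3.24, 4.61 and 4.996 in OF and 31.4, 46.1, 25.1 and 120.2 in DR (log2 fold change -3.10 with SE 0.56, adjusted p = 0.0143). Phenylalanine hydroxylase, pah, had 214, 187, 159.6 and 148 in OF and 679.6, 688, 596 and 718 in DR (log2 fold change -1.92 with SE 0.16, adjusted p = 4.2e-05), with groups that did not overlap. The transporter gene slco1c1, of thyroid hormone in mammals, was lower in OF (33.5, 42.2, 9.23 and 33.3 against 150.2, 118, 68.9 and 137, log2 fold change -2.09 with SE 0.33, adjusted p = 0.00621). Other genes were chosen after their values were seen. The glutathione transferase gene gstt1a had 573, 373, 853 and 493 and 39.9, 55.3, 68.9 and 43.3 (log2 fold change 3.41 with SE 0.22, adjusted p = 5.0e-06). The IGF-binding protein genes igfbp1a, igfbp3 and igfbp5b were all higher in OF. igfbp1a had 679.9, 553, 758 and 627 in OF and 240.5, 270.4, 313 and 356 in DR (log2 fold change 1.15 with SE 0.16, adjusted p = 0.00291), and igfbp3 and igfbp5b had log2 fold changes of 1.3 and 1.89 (adjusted p = 0.0467 and 0.0409). igfbp3 and igfbp1a lie beside each other in the RefSeq order. The growth arrest gene gadd45ab, from a list of 12 tested genes of cell cycle exit with no other call, had 159, 117, 157 and 73.3 in OF and 36.1, 34.8, 35.5 and 15.22 in DR (log2 fold change 2.03 with SE 0.29, adjusted p = 0.00413). fibinb lost its call without replicate 5 (adjusted p = 0.117), igfbp3 without any of the 4 pairs (0.109, 0.19, 0.0981 and 0.0789) and igfbp5b without replicate 2, 4 or 5 (0.128, 0.119 and 0.151). Adding the replicate 1 pair ended the calls of fibinb, gadd45ab, igfbp3, igfbp5b and slco1c1.

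Orthologues of genes linked to human coloboma were called more often than the 1.54% of all genes: 13 of 40 were higher in OF and 2 lower (median 0.5). This list was compiled from known eye genes with earlier results of these data known, so its share describes it and tests nothing. Most of the 15 are ventral, dorsal or retinoic acid genes already given (vax1, vax2, pax2a, aldh1a3, smoc1, ntn1a, six3b, six6a, stra6, cyp1b1 and yap1 higher, gdf6a and bmp4 lower). The remaining ones were tenm3, a synaptic adhesion gene, and znf503, a zinc finger repressor gene. tenm3 had 232, 245, 258 and 271 in OF and 125, 124, 103 and 106 in DR (log2 fold change 1.13 with SE 0.2, adjusted p = 0.0125), and znf503 282, 423, 502 and 319.8 and 157, 182, 331 and 162 (log2 fold change 0.91 with SE 0.17, adjusted p = 0.0199). tenm3 did not overlap between the groups, whereas znf503 in DR replicate 4 exceeded its lowest OF library. Without replicate 4 neither kept its call (adjusted p = 0.122 and 0.0947), nor did they without replicate 5 (0.0737 and 0.0904), and znf503 was lost without replicate 3 (0.118). Both were lost with the replicate 1 pair added (0.104 to 0.192).

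The replicate 1 pair and the later times give values that the test did not use. In the replicate 1 pair 188 of the 207 called genes had a read, and 161 of them (85.6%) differed in the same direction, against 53.2% of 12400 genes overall. Among the exceptions were bmp2b, rdh10a and postnb. At 48 hpf, in 4 pairs, 936 of 15272 genes (6.13%) were called, 4.72% higher in OF and 1.41% lower, and at 56 hpf, in 5 pairs, 1404 of 15499 (9.06%), 6.81% higher and 2.25% lower. Of the 207 genes, 93 were called in the same direction at 56 hpf (44.9% of the 207 and 6.62% of the 1404) and 1 in the opposite one, si:ch211-251b21.1, a gene to which no role is given here. It had 1494, 1519, 1051 and 587 normalised counts in OF and 968, 658, 763 and 296 in DR at 32 hpf (log2 fold change 0.82 with SE 0.15, adjusted p = 0.0157) and a log2 fold change of -0.81 at 56 hpf. The 48 hpf count rests on leaving out replicate 5, whose region genes went against its labels, so shared direction with 32 hpf is in part set by that choice and is not counted. With it limma called none of 15272 genes (2588 had an unadjusted p under 0.05), without replicate 2 67 did, and with the pairing ignored 46 did at 48 hpf and 100 at 56 hpf.

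A call at one time and none at another is no test, so the change of the OF minus DR difference from 32 to 56 hpf was tested itself. It was called for 21 of 13460 genes (0.156%), 17 of which were called at 32 hpf, and 16 of these were also tested at 56 hpf. For 14 of the 16 the value there was nearer to 0, for sfrp1a it was farther, and si:ch211-251b21.1 was called in the opposite direction at about the same size. These genes were chosen by a call at 32 hpf, so values nearer to 0 at 56 hpf are in part set by that choice. The dorsal T-box gene tbx3a had a log2 fold change of -3.09 at 32 hpf, 0.22 at 48 hpf and 0.06 at 56 hpf (change -3.15, SE 0.36, adjusted p = 0.00284). Its OF mean was 102 ± 85.8 normalised counts at 32 hpf and 1047 ± 273 at 56 hpf, while the DR means were 665 ± 145 and 990.5 ± 175 (SD, n = 4 and 5). tbx2a went from -1.63 to -0.16 (change -1.46, SE 0.26, adjusted p = 0.0438). pah was lower in OF at both times, by less at 56 hpf (-1.92 and -0.62, change -1.3, SE 0.18, adjusted p = 0.00929).

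ntn1a went from 5.56 at 32 hpf to 2.61 at 56 hpf (change 2.95, SE 0.54, adjusted p = 0.0489), as its OF mean was 1128 ± 249 at 32 hpf and 373 ± 127 at 56 hpf. fam132a went from 6.98 to 2.71 (change 4.28, SE 0.73, adjusted p = 0.0438), and apln from 2.69 to 1.35 (change 1.33, SE 0.21, adjusted p = 0.0259). tnc and ednraa, at 3.30 and 2.94 before fusion, were at 0.32 and 0.39 after it (changes 2.98, SE 0.52, adjusted p = 0.0438 and 2.55, SE 0.42, adjusted p = 0.0396). The matrix sulfotransferase gene chst2b went from 4.95 to 1.18 (change 3.77, SE 0.59, adjusted p = 0.0259). It had 31.4, 44.6, 22.1 and 25.8 normalised counts in OF at 32 hpf and no read in DR.

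The photoreceptor genes arl3l1 and samd7 had smaller differences at 56 hpf, at higher levels in both regions. arl3l1 had a mean of 47.4 ± 28.7 in OF and 2.999 ± 3.90 in DR at 32 hpf and 2063 ± 805 and 1221 ± 275 at 56 hpf (change 3.23, SE 0.39, adjusted p = 0.00354), and samd7 changed by 1.62, SE 0.27, adjusted p = 0.0438. Among retinoic acid genes nr2f5 went from 2.75 to 1.08 (change 1.68, SE 0.30, adjusted p = 0.0438) and crabp2b from -2.57 to -0.62 (change -1.95, SE 0.34, adjusted p = 0.0438). The bias of sfrp1a was larger after fusion, 1.13 against 2.33 (change -1.19, SE 0.21, adjusted p = 0.0438). Its OF mean was 2359 ± 581 at 32 hpf and 826 ± 109.5 at 56 hpf, and its DR mean 1086 ± 301 and 165 ± 34.9. slco1c1 changed by -2.09, SE 0.37, adjusted p = 0.0438. mrc1a had too few counts at 56 hpf for a test at that time, and its change was 6.52, SE 1.0, adjusted p = 0.0258. That change is larger than its difference at 32 hpf, so in these few counts OF lay below DR at 56 hpf. With the replicate 1 pair added, or with 1 pair of either time left out in turn, tbx3a, pah and si:ch211-251b21.1 kept their calls in 10 of 10 fits (highest adjusted p of 0.0172, 0.0390 and 0.0248). arl3l1 kept it in 9 of 10, and the other 13 genes in 1 to 4.

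**Figure D5:**
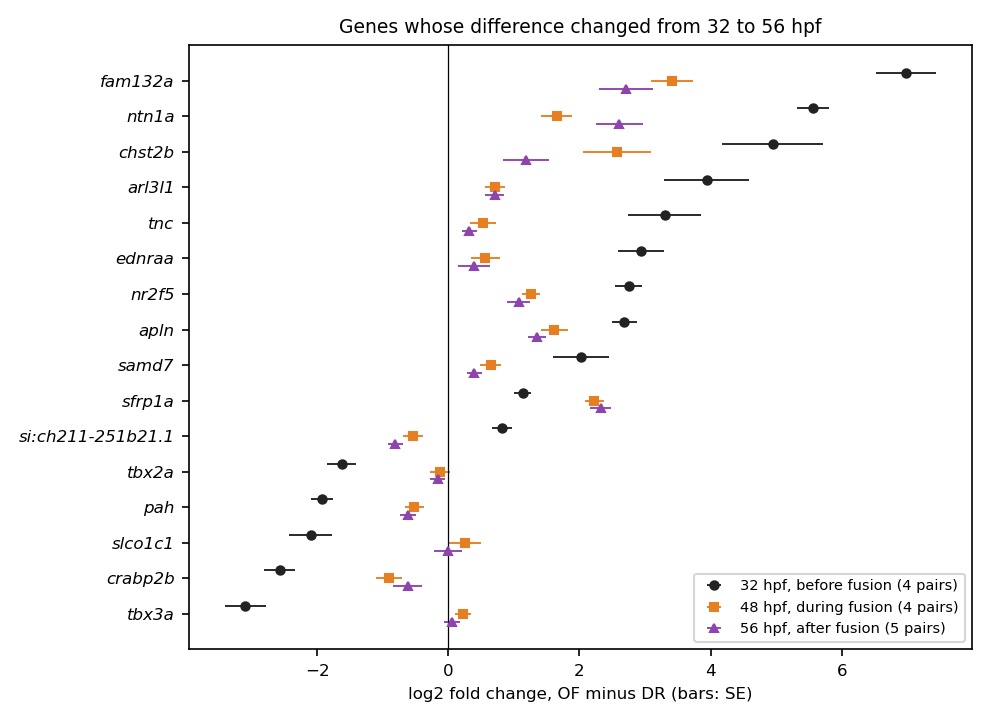
Log2 fold change of OF minus DR at 32 hpf (black circles, 4 pairs), 48 hpf (orange squares, 4 pairs) and 56 hpf (purple triangles, 5 pairs) for 16 genes whose difference changed between 32 and 56 hpf, with bars for the SE. For 14 of them the 56 hpf value lies nearer to 0 than the 32 hpf value, for sfrp1a it lies farther, at 2.33 against 1.13, and for si:ch211-251b21.1 it lies across 0, at -0.81 against 0.82. The genes had to be called at 32 hpf, which in part sets how many lie nearer to 0 at 56 hpf.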

How the data were processed

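The authors deposited 1 table of signal, that is of normalised read counts (27731 genes, each library scaled by its own size factor). The submitters' processing notes list GRCz10 as build and, with no role, STAR 2.4.0, HTSeq, DESeq2, Picard and Trim Galore. Neither strand setting nor annotation release is given in the sources used here. In each library low values were whole multiples of 1 step, so reads could be recovered, and 100.0% came out whole within 0.01 reads. Size factors assume that most genes do not change.

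The comparison took replicates 2 to 5 of OF and DR at 32 hpf. A gene was kept where 4 or more of the 8 libraries reached a normalised count of 10. Among the low genes that passed through OF alone were sox1b, shtn1, chst2b, mrc1a, lyve1b and the first bmpr1bb ID. The gene gdf6b passed through DR alone. The test was limma-trend (limma 3.58.1, R 4.3.3) applied to log2(normalised count + 1), with the replicate number as a block, two-sided, with Benjamini-Hochberg adjustment over 13460 genes and a threshold of 0.05. The log2(value + 1) scale understates changes of low genes. The same fit was made at 48 hpf (replicates 1 to 4) and 56 hpf (replicates 1 to 5), and within-pair differences were compared between 32 and 56 hpf. These later counts share no library with the 32 hpf test.

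Libraries were paired by number. Deviations from the group means correlated at 0.34, 0.55, 0.46 and 0.50 within the 4 pairs at 32 hpf and between -0.28 and -0.03 across numbers. Such deviations cancel out within a group, so negative values across numbers are in part set by the method. At 56 hpf OF replicate 1 and DR replicate 2 correlated at 0.29, and OF replicate 2 and DR replicate 1 at 0.28. The pair of replicate 4 at that time correlated at 0.32. The fit was tested on simulated data first. There it called 14% of genes changed by a log2 fold of 0.5, 50% at 1, 96% at 2 and 100% at 4. Of unchanged genes it called 0.0551%. Many differences of a log2 fold of 1 or less would thus be missed.

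Members and the 37 gene lists (1473 symbols) were chosen with earlier results of these data known, so list counts are descriptions and no list was tested. Named genes were the 12 largest increases and decreases with a mean of at least 50, the 10 most abundant called genes, called members of a list (all members for the eye axis, neurogenic, ganglion cell, retinoic acid and coloboma lists), defining markers, and the 8 smallest adjusted p for the change over time. Genes outside this rule are marked in the text, and some genes that it names are not reported here. Folds against a group without reads use a floor of 3 reads per library. Intervals are exact 95% counting intervals and, like the floor, cover counting error only. Gene order came from RefSeq's assembly GRCz12tu, which is not the build of the files, so no coordinates are given. Alternatives changed the pairing, libraries, pseudocount, filter, scaling, spread and test, with DESeq2 1.42.0 and edgeR 4.0.16 (its quasi-likelihood test) on the recovered reads, and left out each pair in turn.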

Additional observations from a re-analysis of the deposited data

Results flagged for a closer look

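Within each group of 4 libraries the highest or lowest value was compared with the nearest of the others for the genes named in the text and the summed lists. A gap that took more of the group's range than Dixon's 95% value for 4 samples was found in 32 of 313 groups with a mean of at least 10 (10.2%). Dixon's rate of 1 in 20 holds for independent normal values. These are counts of chosen genes in shared libraries, so their share by chance is not known. DR replicate 2 lay below the other 3 libraries for hmx4 (1112 against 1365 to 1416), tbx5a (101 against 186 to 197), dusp6 (115 against 156 to 163) and ntn1a (10.5 against 28.0 to 29.7). DR replicate 3 lay above the other 3 libraries for id4 (79.9 against 16.7 to 25.7) and hbbe1.1 (675 against 0 to 43.8), and below the other 3 libraries for gdf6a (265 against 392 to 412), aqp9b (19.5 against 56.4 to 63.3), bambia (3454 against 4477 to 4503) and ackr3b (199 against 283 to 296). DR replicate 4 lay above the other 3 libraries for znf503 (331 against 157 to 182), apln (98.1 against 62.5 to 65.6), nog3 (211 against 104 to 109), foxc1a (72.0 against 22.4 to 26.6) and summed periocular mesenchyme and neural crest genes (3302 against 2558 to 2586), and below the other 3 libraries for summed muscle genes (224 against 417 to 443). DR replicate 5 lay above the other 3 libraries for pax2a (257 against 93.1 to 114), and below the other 3 libraries for gadd45ab (15.22 against 34.8 to 36.1). OF replicate 2 lay above the other 3 libraries for id2b (29.3 against 2.77 to 6.66), hbae3 (4216 against 866 to 1264), hbae1.3 (995 against 266 to 379) and summed red blood cell genes (14318 against 4927 to 6453), and below the other 3 libraries for eya1 (176 against 235 to 246). OF replicate 4 lay above the other 3 libraries for sox1b (57.2 against 14.6 to 17.5), cldn11a (147 against 34.1 to 46.0), etv2 (185 against 79.5 to 91.0), fli1a (214 against 82.6 to 98.9), summed lens genes (288 against 109 to 120.0), summed skin and periderm genes (1938 against 809 to 961) and summed interstitial matrix genes (5956 against 3499 to 3843). OF replicate 5 lay below the other 3 libraries for id4 (6.66 against 86.7 to 94.9) and summed pigment epithelium and melanin genes (20837 against 29834 to 30944).

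The difference between OF and DR changed from 32 to 56 hpf by a test of the change itself for 17 genes named in the text. The 32 hpf less the 56 hpf difference was -3.15 for tbx3a (adjusted p = 0.00284), -2.09 for slco1c1 (adjusted p = 0.0438), -1.95 for crabp2b (adjusted p = 0.0438), -1.46 for tbx2a (adjusted p = 0.0438), -1.3 for pah (adjusted p = 0.00929) and -1.19 for sfrp1a (adjusted p = 0.0438). It was 6.52 for mrc1a (adjusted p = 0.0258), 4.28 for fam132a (adjusted p = 0.0438), 3.77 for chst2b (adjusted p = 0.0259), 3.23 for arl3l1 (adjusted p = 0.00354), 2.98 for tnc (adjusted p = 0.0438), 2.95 for ntn1a (adjusted p = 0.0489), 2.55 for ednraa (adjusted p = 0.0396), 1.68 for nr2f5 (adjusted p = 0.0438), 1.63 for si:ch211-251b21.1 (adjusted p = 0.00284), 1.62 for samd7 (adjusted p = 0.0438) and 1.33 for apln (adjusted p = 0.0259). OF was higher than DR at 32 hpf for these genes and for sfrp1a, and lower for the other 5. What moved with these changes was not tested.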

How the results depend on the processing

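Of the 17 alternatives at 32 hpf, 6 changed the number of called genes (207, 163 higher and 44 lower in OF) by more than 1.5 times in total or in a direction. Ignoring the pairing left 63 (43 and 20), and adding the replicate 1 pair left 54 (36 and 18). One fit to 13 pairs of all times called 438 (366 and 72), DESeq2 338 (262 and 76), and a test without a filter 133 (102 higher). With 1 pair left out the number ranged from 78 to 218 (52 to 156 higher, 26 to 62 lower), lowest without replicate 4. Of the 207 calls, 63 were kept without the block, 53 with replicate 1, 181 with edgeR, 190 with TMM and 192 with quantile scaling, and 70 with any 1 pair left out. Over 17 alternatives 1 call changed sign, pax10, at -0.43 with the replicate 1 pair. Of the genes not called, id1 changed sign with 1 pair left out (-0.37 to 0.014). The cause was not tested.

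At 48 hpf (936, 721 higher and 215 lower) the number was 0 (0 and 0) by limma with the replicate 5 pair, where 2588 genes had an unadjusted p under 0.05, and 46 (35 and 11) with no replicate block, and from 67 to 925 (56 to 664 and 11 to 294) with 1 pair left out, lowest without replicate 2. At 56 hpf (1404, 1056 and 348) it was 100 (79 and 21) with no replicate block and from 645 to 1428 (490 to 1028 and 125 to 400) with 1 pair left out, 667 without replicate 1, 762 without replicate 3 and 645 without replicate 5. The change from 32 to 56 hpf was called for 21 genes, for 3 with the replicate 1 pair and for 5 to 30 with a pair left out, lowest without replicate 1 of 56 hpf. Apart from leaving out replicate 1 of 56 hpf, leave-one-out at later times and all alternatives for the change were chosen after seeing the data. Genes under the count minimum were not tested, and with 4 pairs a missed threshold does not show that 2 levels were equal.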

Other observations

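Further called genes, which except glula are on no list, were chosen after their values were seen and are given as values. Among genes of the actin cytoskeleton, the filamin gene flna had 219, 99.7, 272 and 157 normalised counts in OF and 87.4, 73.7, 104 and 56.1 in DR (log2 fold change 1.15 with SE 0.25, adjusted p = 0.0451), and the tropomyosin gene tpm4a 441, 429.7, 874 and 496 and 287, 289.9, 349.7 and 215 (log2 fold change 0.93 with SE 0.17, adjusted p = 0.019). The profilin gene pfn1 had 658, 459, 538 and 588 in OF and 196, 428, 176 and 286 in DR (log2 fold change 1.12 with SE 0.24, adjusted p = 0.0394), and the caldesmon gene cald1a 389, 395, 335 and 201 and 179, 211, 158 and 122 (log2 fold change 0.95 with SE 0.18, adjusted p = 0.0166). The groups did not overlap for tpm4a and pfn1.

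The paired-box gene pax8, a relative of pax2a, had 107, 234, 307 and 276 in OF and 11.4, 16.4, 45.9 and 171 in DR (log2 fold change 2.57 with SE 0.41, adjusted p = 0.00785). The sulfatase gene sulf1, which edits heparan sulfate, had 126, 178, 107 and 149.9 in OF and 42.8, 50.2, 17.7 and 32.9 in DR (log2 fold change 2.00 with SE 0.29, adjusted p = 0.00434), and fgfbp1b, of the FGF-binding protein family, 201, 121, 206 and 111 and 58.9, 21.5, 45.9 and 54.5 (log2 fold change 1.83 with SE 0.30, adjusted p = 0.0079). The pericyte and fibroblast genes cd248a and cd248b were higher in OF (log2 fold changes 3.29 and 1.96, adjusted p = 0.0463 and 0.0412). The glutamine synthetase gene glula, known from Mueller glia, was lower in OF, at 265, 302, 363 and 204 against 706, 661, 519.8 and 446 (log2 fold change -1.05 with SE 0.17, adjusted p = 0.0085). No gene of either paragraph stayed called with the replicate 1 pair added. Of the genes of both paragraphs, the following missed the threshold with a pair left out (adjusted p in brackets): without replicate 2 flna, pfn1, cd248a and cd248b (0.102, 0.0927, 0.104 and 0.0711), without replicate 3 cald1a, cd248a and cd248b (0.0642, 0.136 and 0.0834), without replicate 4 flna, tpm4a, pfn1, cald1a, pax8, fgfbp1b, cd248a and cd248b (0.324, 0.232, 0.355, 0.155, 0.104, 0.0947, 0.131 and 0.273) and without replicate 5 flna, tpm4a, pfn1, cd248a and cd248b (0.194, 0.107, 0.11, 0.113 and 0.0815).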
